A study of Homo sapiens with 115 samples.

Results

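KRTAP2-3 and KRTAP3-1 encode keratin-associated proteins and were 2 of the 93 KRTAP gene names in a count table of 43386 rows made from single HCT116 cells. Each gene had 2 rows, the plain name and a copy whose name carries an added number (as in KRTAP2-3_1), so 4 rows in all were described. Both genes were chosen by their levels in these same cells, since the CPM (counts per 1000000 counts of the cell) and the share of cells with a count over stages and lines selected them. Their levels by stage and line are therefore given as a description, without a test.

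HCT116 is a human colorectal cancer cell line, and its p53+/+ and p53-/- forms were followed through an 8 Gy irradiation. Cells were aspirated 1 by 1 under a microscope and their RNA was amplified as full-length cDNA. The stages were unirradiated cells [N] (day 0), pre-budding radiation-tolerant persister cells [P] (day 7), budding persister cells [B] (day 10), progenies newly budded from them [S] (day 10) and repopulated cells [R] (day 30). The labels give the dose for [N] as well, while the study describes these cells as unirradiated. The p53+/+ line gave 6 [N], 6 [P], 28 [B], 21 [S] and 11 [R] cells, and the p53-/- line gave 7, 11, 8, 9 and 8 cells of the same stages, 72 and 43 cells by line. The study's text splits the same total slightly differently between the lines, and which cells differ is not given in the sources used here, so the labels were followed. Within a line and stage the cells came from 1 to 9 sets by the digits that open their titles, and nothing says that these sets were separate cultures, so the spread between cells may be partly technical. What each of the 19 sets of digits stands for is not given in the sources used here.

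Keratin-associated proteins are small, cysteine-rich or glycine- and tyrosine-rich proteins that cross-link hair keratin filaments in the cortex and cuticle of the hair shaft. Their genes lie in clusters, mostly without introns, and are known for expression in the differentiating hair follicle rather than in intestinal epithelium. KRTAP2-3 and KRTAP3-1 belong to the high-sulfur families of the cluster among the type I keratin genes of chromosome 17. On GRCh38.p14, KRTAP2-3 spans chr17:41059240-41060114 and KRTAP3-1 spans chr17:41008521-41009128, both on the minus strand, with 50.7 kb between their lower ends. The RefSeq gene spans are 875 and 608 bases.

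The 250 bases before the annotated start of each gene are shown because the median of each gene was higher in [P] than in [N] in both lines. They are RefSeq sequence of GRCh38.p14, 5′ to 3′ on the minus strand, from chr17:41060115-41060364 and chr17:41009129-41009378. Capitals mark matches to 7 motifs searched on both strands: TATAAA (the TATA box), CCAAT (the CCAAT box), TGANTCA (for AP-1), GGAATG (for TEAD), CTTTGA (for TCF/LEF), the interferon-stimulated response element ISRE and, added after the sequences were seen and overlapping the first, the run TATATAA.
KRTAP2-3: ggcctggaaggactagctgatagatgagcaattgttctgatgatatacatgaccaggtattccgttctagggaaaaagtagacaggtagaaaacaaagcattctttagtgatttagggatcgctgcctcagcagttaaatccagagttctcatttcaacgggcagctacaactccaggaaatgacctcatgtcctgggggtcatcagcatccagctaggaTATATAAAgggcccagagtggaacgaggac
KRTAP3-1: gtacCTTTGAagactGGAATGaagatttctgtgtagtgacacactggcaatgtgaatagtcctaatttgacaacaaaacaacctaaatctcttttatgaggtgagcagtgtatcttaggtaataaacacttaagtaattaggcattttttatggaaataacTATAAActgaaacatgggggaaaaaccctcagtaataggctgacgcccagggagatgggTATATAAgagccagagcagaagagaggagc
Counted from the annotated start, each sequence held TATATAA at -30 to -24, a run found in 2.42% of the 35116 RefSeq windows of this length. The run was in 6 of the 7 KRTAP2 and KRTAP3 genes searched, among them KRTAP3-2, which had counts in 10 cells only. KRTAP3-1 also held TATAAA at -89 to -84, GGAATG at -235 to -230 and CTTTGA at -246 to -241. These letters occur in 10.7%, 11.9% and 11.2% of all windows. In KRTAP2-3 the TATAAA match lay inside the TATATAA run, and none of the other letters searched was in the window of KRTAP2-3.

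KRTAP2-3 was detected in every cell of both lines and was the more abundant of the pair in most of them. In [N], p53+/+ cells had a lowest, median and highest level of 0.281, 2.96 and 9.05 CPM, and p53-/- cells had 1.87, 8.43 and 32.9 CPM. In [P] the corresponding values were 5.45, 167 and 679 CPM in p53+/+ cells and 0.370, 120 and 388 CPM in p53-/- cells. In [B] they were 10.3, 255 and 2028 CPM in p53+/+ cells and 1.86, 66.4 and 1591 CPM in p53-/- cells. The p53+/+ line therefore showed no overlap between [B] and [N]: 28 of 28 budding cells exceeded the highest unirradiated cell, as did 5 of 6 [P] and 20 of 21 [S] cells. In the p53-/- line the stages overlapped, and 7 of 11 [P], 6 of 8 [B] and 5 of 9 [S] cells were above the highest [N] cell.

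In budded progenies KRTAP2-3 ranged from 0.200 to 662 CPM with a median of 112.3 CPM in the p53+/+ line, and from 0.0698 to 912 CPM with a median of 33.5 CPM in the p53-/- line. In the repopulated cells of day 30 it ranged from 0.468 to 107.1 CPM around a median of 27.5 CPM in p53+/+ cells and from 3.85 to 75.1 CPM around a median of 16.1 CPM in p53-/- cells. Medians in [R] thus lay between those of [N] and [S], and 9 of 11 p53+/+ cells but 1 of 8 p53-/- cells were above every [N] cell of their line. As means, p53+/+ cells had 4.11 ± 3.84 CPM in [N] (SD, n = 6), 227 ± 243 in [P] (n = 6), 294 ± 372 in [B] (n = 28), 173 ± 180 in [S] (n = 21) and 34.0 ± 30.1 in [R] (n = 11). In p53-/- cells the means were 12.3 ± 10.8 CPM in [N] (SD, n = 7), 140 ± 136 in [P] (n = 11), 298 ± 545 in [B] (n = 8), 129 ± 295 in [S] (n = 9) and 22.5 ± 22.6 in [R] (n = 8). The mean order was [B], [P], [S], [R], [N] in both lines, but [P], [B] and [S] lay within 1 SD of the [B] cells of their line. In the p53-/- line 1 cell held 66.6% of the summed CPM of [B] and 1 cell held 78.5% of that of [S], and without those cells the means were 113.8 and 31.1 CPM.

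KRTAP3-1 was close to undetectable before irradiation and had counts in 90 cells. Among [N] cells 2 of 6 p53+/+ cells (33.3%, 95% exact Clopper-Pearson interval 4.33 to 77.7%) and 5 of 7 p53-/- cells had a count, with maxima of 0.0658 and 0.781 CPM. These [N] cells held 4 and 45 counts of KRTAP3-1 in all. Every [P] cell had a count, 6 of 6 and 11 of 11, and so did 28 of 28 [B] cells of p53+/+ and 7 of 8 of p53-/-. The share then was 18 of 21 and 5 of 9 in [S], and 6 of 11 and 2 of 8 in [R]. The interval covers counting error only. Thinned to 15435056 counts per cell, with 12 shallower cells left out, 0 of 3 p53+/+ and 5 of 7 p53-/- [N] cells had a count, against 22 of 22 and 7 of 8 [B] cells.

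The level of KRTAP3-1 after irradiation was split by line. In [P] it had a lowest, median and highest level of 0.777, 9.69 and 44.5 CPM in p53+/+ cells and 0.0309, 3.58 and 1303 CPM in p53-/- cells. In [B] the values were 0.499, 65.7 and 451 CPM in p53+/+ cells but 0, 0.680 and 4.45 CPM in p53-/- cells. Of the 28 budding p53+/+ cells, 24 lay above every one of the 8 budding p53-/- cells. Budding cells of both lines share title digits in the set 1118 only, where the p53+/+ cells had 167 and 4.58 CPM and the p53-/- cell 2.92 CPM, so line and set can hardly be told apart in [B]. In [S] the median was 13.8 CPM (0 to 298) in p53+/+ cells and 0.0366 CPM (0 to 18.96) in p53-/- cells, and 9 of 21 p53+/+ cells exceeded all 9 p53-/- cells. In the 3 sets of digits with [S] cells of both lines the means were 93.9 and 0.0811 CPM, 113.9 and 0.0183 CPM, and 0 and 0 CPM, p53+/+ first. In [R] it fell to medians of 0.0592 CPM (highest 7.90) and 0 CPM, which overlapped with [N] in both lines. Mean levels by line were 0.0207 and 0.198 CPM in [N], 13.2 ± 16.2 (SD, n = 6) and 154 ± 396 (n = 11) in [P], and 91.9 ± 107.6 (n = 28) and 1.74 ± 1.75 (n = 8) in [B], p53+/+ first. They were 47.7 ± 81.5 (SD, n = 21) and 3.60 ± 6.59 CPM (n = 9) in [S], and 1.91 ± 2.99 (n = 11) and 0.376 ± 0.714 (n = 8) in [R]. The high p53-/- mean of [P] rested on 2 cells with 1303 and 358 CPM, both of the title digits 1118, of which the first held 77.1% of the summed CPM. Without them the mean of the other 9 cells was 3.14 ± 3.12 CPM (SD). The digits 1118 hold no p53+/+ [P] cell, and within the digits 1115, which hold [P] cells of both lines, the means were 13.2 and 2.995 CPM.

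**Figure D1:**
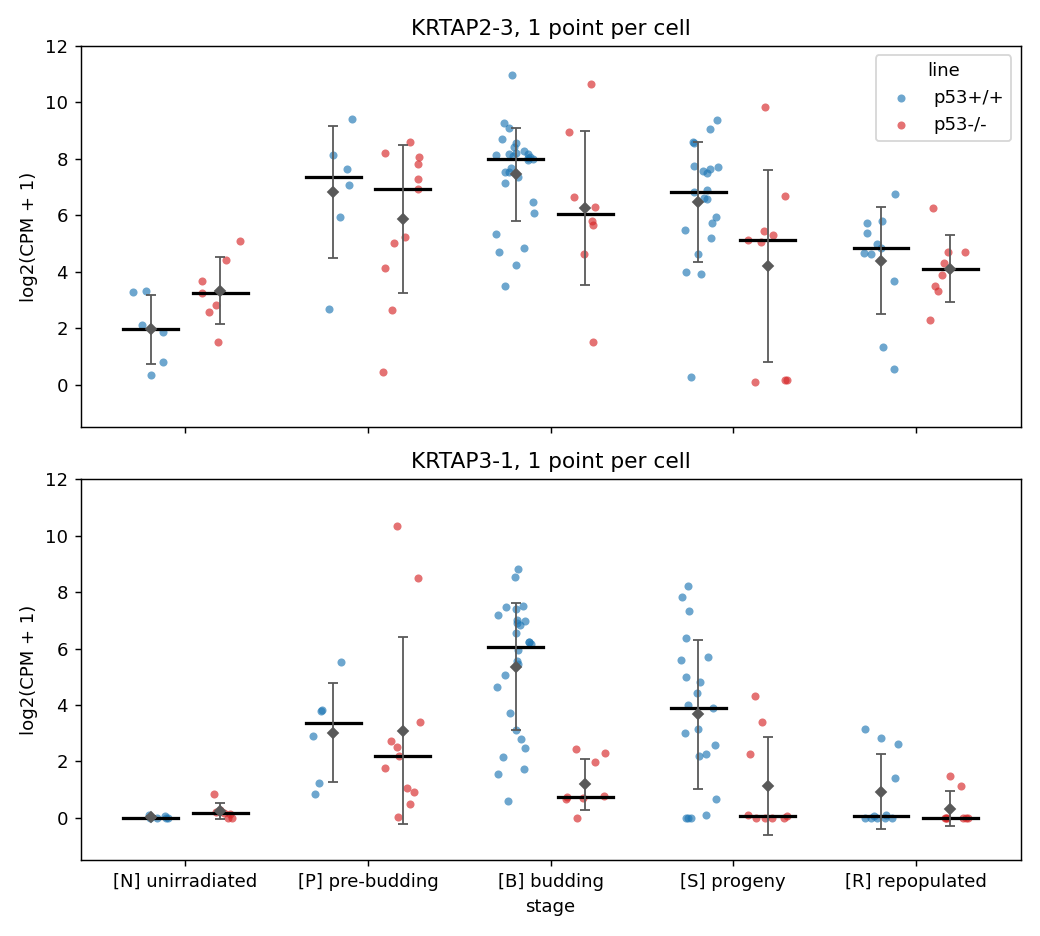
Level of KRTAP2-3 (top) and KRTAP3-1 (bottom) in each cell as log2(CPM + 1), by stage and line. Points are cells, black bars medians, and grey diamonds means with SD over cells. KRTAP2-3 is above [N] in most cells of [P], [B] and [S] of both lines, while KRTAP3-1 reaches a median of 65.7 CPM in budding p53+/+ cells and 0.680 CPM in budding p53-/- cells.

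Per kilobase of the gene, the median of KRTAP2-3 was 292 CPM per kb in budding p53+/+ cells, 2.70 times that of KRTAP3-1. In budding p53-/- cells it was 75.9 CPM per kb against 1.12 CPM per kb, 67.8 times as much. In [S] the medians stood 5.65 and 636 times apart, p53+/+ first. KRTAP3-1 thus came closest to KRTAP2-3, among the ratios that could be formed, in budding p53+/+ cells.

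To put one value on each stage, cells of the same stage and line were added up, and the 10 resulting sums were fitted with edgeR with the lines as replicates. The levels that selected both genes enter these fits, so their fold changes and SE are a description and not a test. For KRTAP2-3 the log2 fold change against [N] was 4.195 ± 0.44 (SE) for pre-budding cells, 5.31 ± 0.47 for budding cells, 4.29 ± 0.44 for budded progenies and 1.61 ± 0.40 for repopulated cells. In [R] against [S] it was -2.68 ± 0.41, and in [B] against [P] it was 1.11 ± 0.39. Each of these had the same sign in both lines, with 5.71 in p53+/+ and 5.07 in p53-/- sums for [B] against [N], 5.09 and 3.43 for [P] against [N], and 2.49 and 0.87 for [R] against [N]. The p53-/- value of [B] against [P] was 1.64, and 1 cell held 95103 of the 126300 counts of that [B] sum. The median over p53-/- cells went the other way, from 120 CPM in [P] to 66.4 CPM in [B]. Of the 54122 counts of the p53-/- [S] sum, 1 cell held 44951. Between the lines, with the stage as a block, the log2 fold change of p53-/- over p53+/+ was 0.04 ± 0.25.

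For KRTAP3-1 the log2 fold change against [N] was 8.95 ± 2.55 (SE) for pre-budding cells, 8.49 ± 2.50 for budding cells, 7.67 ± 2.42 for budded progenies and 3.07 ± 2.03 for repopulated cells. The [N] sums of this gene held 4 and 45 counts. [B] against [N] gave 11.31 in the p53+/+ sums and 3.11 in the p53-/- sums, and [S] against [N] gave 10.44 and 3.53. In p53-/- cells the median was lower in [S] than in [N], at 0.0366 against 0.134 CPM, and 3 of 9 [S] cells reached 1 CPM. Without the p53+/+ sum of the later stage the fitted [B] and [S] changes against [N] were 3.88 and 4.26. Without the p53-/- sum of [N] they were 10.54 and 9.72. The p53-/- over p53+/+ log2 fold change was -1.83 ± 1.65 (SE) with the stage as a block. [B] against [P] gave -0.46 ± 1.78 in the fit over both lines, with 3.31 in p53+/+ and -5.97 in p53-/- sums. The direction from pre-budding to budding was thus opposite in the lines, upward in p53+/+ and downward in p53-/-, and this difference was not tested. Without the 2 high [P] cells, a choice made after their values were seen, the log2 ratio of the summed CPM of [B] over [P] in p53-/- cells was -0.74 in place of -5.91. Without the p53-/- sum of [P] the fitted change of [P] over [N] was 6.22 in place of 8.95.

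**Figure D2:**
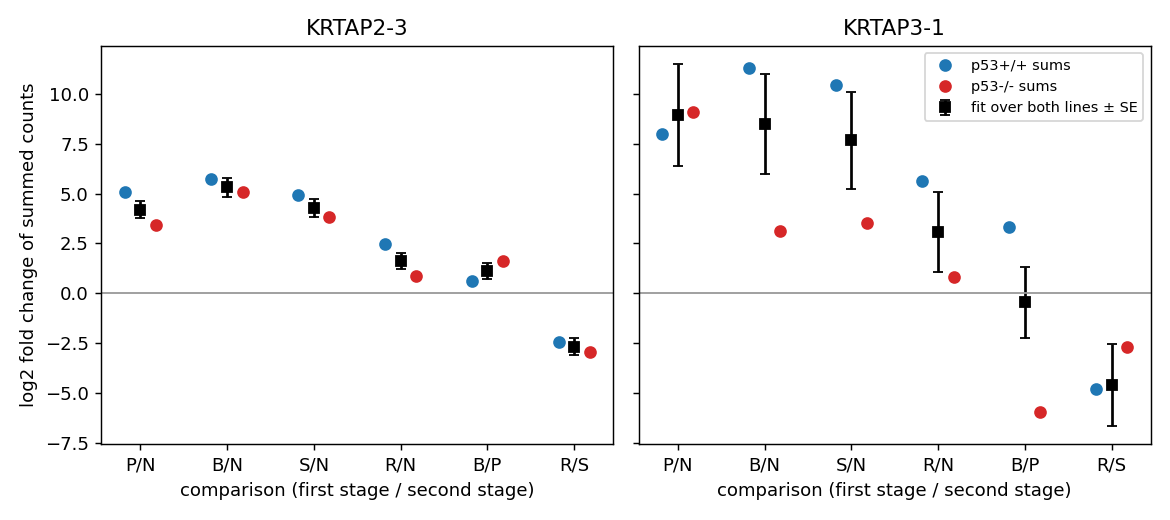
Log2 fold change of the summed counts of KRTAP2-3 (left) and KRTAP3-1 (right) for 6 comparisons of stages. Black squares are the edgeR fit over both lines with its SE, and blue and red points the p53+/+ and p53-/- sums alone. For KRTAP2-3 the lines have the same sign in each comparison and lie furthest apart at [P] over [N], with 5.09 and 3.43, and for KRTAP3-1 they part at [B] over [P], with 3.31 and -5.97.

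Cells with much KRTAP3-1 also held KRTAP2-3, but the reverse did not hold. At a level of at least 10 CPM, 38 cells had both genes, 55 had KRTAP2-3 alone, 0 had KRTAP3-1 alone and 22 had neither. The 38 cells with both were 21 of 28 [B], 11 of 21 [S] and 3 of 6 [P] cells of the p53+/+ line, and 2 of 11 [P] and 1 of 9 [S] cells of the p53-/- line. No [N] or [R] cell was among them. Over all 72 and 43 cells Spearman's rho of log2(CPM + 1) was 0.670 and Pearson's r was 0.625. How much of this comes from the stages that the cells share was not tested. Within a stage and line rho was 0.154 in the 28 [B] and 0.596 in the 21 [S] cells of p53+/+, and 0.636 in the 11 [P] cells of p53-/-. In budding p53+/+ cells, where the medians of both were highest, the pair thus varied with little relation to each other.

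**Figure D3:**
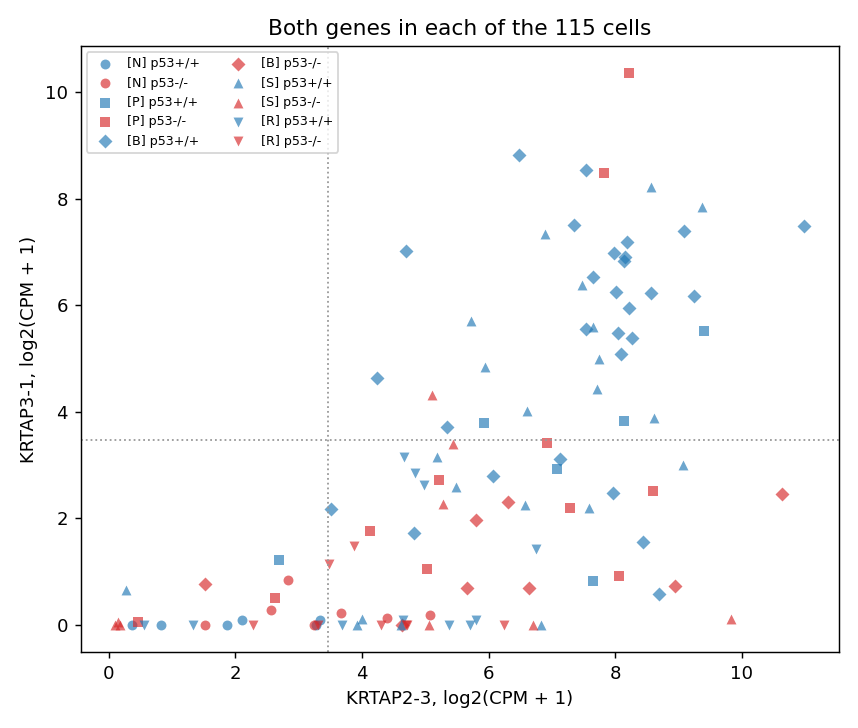
KRTAP3-1 against KRTAP2-3 in each cell, both as log2(CPM + 1). Symbols give the stage and colors the line, and dotted lines mark 10 CPM. The upper left field, with KRTAP3-1 at 10 CPM or more and KRTAP2-3 below it, holds 0 cells.

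Depth and the title digits were set beside these levels. The total counts of a cell lay between 4056329 and 100173192 (median 34238237), and their rho with KRTAP2-3 over all cells was -0.079 and with KRTAP3-1 was -0.168. Only the digits 1115 hold both [N] and [P] cells. There, p53+/+ cells had 9.05 CPM of KRTAP2-3 in the 1 [N] cell and a mean of 227 CPM in 6 [P] cells, and p53-/- cells had means of 3.39 CPM (2 cells) and 28.1 CPM (3 cells). KRTAP3-1 within the same digits had 0.0582 and 13.2 CPM in p53+/+ cells, and 0.106 and 2.995 CPM in p53-/- cells. Cells of [P] and [B] shared digits in 2 sets, both p53-/- with 1 [B] cell each, and there KRTAP2-3 was lower in [B], at 54.9 against a mean of 267 CPM and at 1.86 against 98.04 CPM, the opposite side to its fitted change. KRTAP3-1 was lower in [B] there as well, at 2.92 against 417 CPM and at 0.698 against 2.74 CPM. Budding cells and progenies shared digits in 11 sets of one line, and the mean of KRTAP2-3 was higher in [S] in 3 of them and that of KRTAP3-1 in 4. The [R] cells share no digits with another stage, so day 30 and that set cannot be told apart. For the cells themselves, CDKN1A, an inhibitor of cyclin-dependent kinases, had a median of 988 CPM in p53+/+ and 172 CPM in p53-/- cells.

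The identity of the cells was checked with markers. Of 11 colorectal epithelium markers, 6 or 7 had a median above 0 in every stage (EPCAM, KRT8, KRT18, KRT19, CDH1 and CDX2 among them), and their summed CPM ranged from 1595 to 33840 per cell. CDX1, VIL1, CDH17 and LGALS4 had a median of 0 in every stage. All 6 hematopoietic markers had a median of 0 in every stage, with a summed level of at most 21.2 CPM in a cell. Of the 7 stromal and endothelial markers COL1A1 alone had a median above 0, and the 7 summed to at most 62.3 CPM. The melanocyte markers MLANA and SOX10 had a median of 0, and the 4 of that list summed to medians of 0.763 to 9.86 CPM by stage and at most 225 CPM.

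Around them, most genes of the KRTAP cluster outside the KRTAP2 family carried hardly a count. In the 23 KRTAP genes with lower ends from -65.8 to 131 kb of that of KRTAP2-3, 6 had a row, plain or copy, with a stage mean of at least 1 CPM, namely KRTAP2-3, KRTAP3-1, KRTAP2-4, KRTAP2-1, KRTAP2-2 and KRTAP3-2. All rows of the other 17 stayed at or below 0.679 CPM in every stage. Of the 6 genes that lie between the pair, the 4 of the KRTAP1 family had counts in at most 7 cells, and the plain rows of KRTAP2-1 and KRTAP2-2 in 61 and 59 cells at up to 1.07 and 2.21 CPM. Their copy rows were higher, with counts in 36 of 36 [B], 16 of 17 [P], 26 of 30 [S] and 11 of 13 [N] cells each. KRTAP2-1_1 reached 46.8 CPM and KRTAP2-2_1 28.8 CPM, and both genes share long stretches with KRTAP2-3. KRTAP3-2 and KRTAP3-3, the paralogs next to KRTAP3-1, had counts in 10 and 3 cells. KRTAP3-2 reached 23.2 CPM in the p53-/- [P] cell that held 1303 CPM of KRTAP3-1, and 12.2 and 12.4 CPM in the p53-/- [P] cells that held 4.70 and 0.885 CPM.

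**Figure D4:**
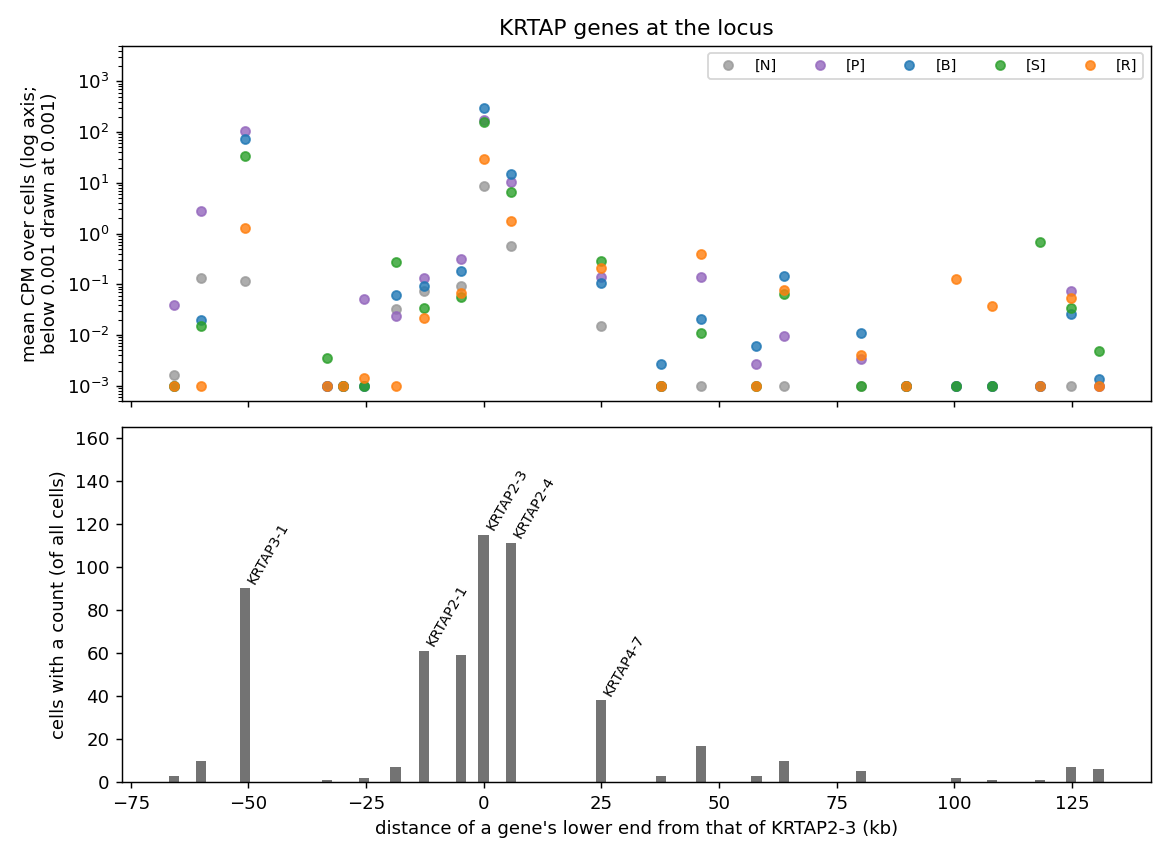
KRTAP genes around KRTAP2-3 by the distance of their lower end from that of KRTAP2-3, plain rows only. Top, mean CPM over the cells of each stage on a log axis (values below 0.001 are drawn at 0.001); bottom, the number of cells with a count. KRTAP3-1 has counts in 90 cells and KRTAP2-3 in every cell, and most genes between and beside them in few.

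Near-identical genes limit what the KRTAP2 rows can show. Of the stretches of 75 bases in the GENCODE v44 transcript of KRTAP2-3, 36.1% occur unchanged in KRTAP2-4, 28.5% in KRTAP2-1 and 27.5% in KRTAP2-2. KRTAP3-1 shares no such stretch with the other 6 KRTAP2 and KRTAP3 genes nearby. Upstream the KRTAP2 genes are alike as well, as the 58 bases around the TATATAA run show, aligned at that run without gaps, with capitals where a base differs from KRTAP2-3.
KRTAP2-3: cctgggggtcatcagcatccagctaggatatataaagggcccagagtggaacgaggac
KRTAP2-4: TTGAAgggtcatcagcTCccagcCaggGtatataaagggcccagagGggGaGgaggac
KRTAP2-2: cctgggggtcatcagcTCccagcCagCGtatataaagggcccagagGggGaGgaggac
KRTAP2-1: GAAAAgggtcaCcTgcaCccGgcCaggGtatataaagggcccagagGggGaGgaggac
They are the minus strand of chr17:41060115-41060172, chr17:41065910-41065967, chr17:41055276-41055333 and chr17:41047332-41047389, and 46, 50 and 44 of the 58 bases are the same as in KRTAP2-3. Over the 10 sums, the counts of KRTAP2-4 came to 3.75 to 7.60% of those of KRTAP2-3, and its copy, KRTAP2-4_1, to 11.6 to 25.6%. Reads of these genes cannot be told apart where the sequences are shared, so the values of KRTAP2-1, KRTAP2-2 and KRTAP2-4 are uncertain and are not independent of KRTAP2-3.

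The remaining KRTAP rows were then tested in the same fit. Rows of KRTAP2-1, KRTAP2-2 and KRTAP2-4 can hold reads of KRTAP2-3, which was chosen by its levels over these stages. Their p-values are therefore not independent of that choice, and their calls are no separate evidence on the family. Of 129 rows, 10 passed the filter on low counts, 6 of them of KRTAP2-1, KRTAP2-2 and KRTAP2-4, and in [B] against [N] 3 rose, all from the KRTAP2 family. KRTAP2-4_1 rose by 4.86 ± 0.43 on the log2 scale (SE, adjusted p = 0.0034 from edgeR), KRTAP2-4 by 4.80 ± 0.59 (adjusted p = 0.0142 from edgeR) and KRTAP2-1_1 by 4.47 ± 0.63 (adjusted p = 0.0219 from edgeR). Over all 19894 genes tested, 131 or 0.658% were called in this comparison. In [P] against [N], where 0.0201% of all genes were called, and in [S] against [N], where 0.0704% were, 1 KRTAP row was called, KRTAP2-4_1, with log2 fold changes of 3.94 ± 0.41 (adjusted p = 0.0172 from edgeR) and 3.69 ± 0.41 (adjusted p = 0.0119 from edgeR). In [R] against [N] and [B] against [P], edgeR called none of the 10 rows and 0% of all genes, with 3 and 1 of the rows and 1711 and 1030 of all genes at a raw p under 0.05, and DESeq2 called 1 and 0 of the rows and 401 and 128 genes. In [R] against [S], 0.0201% of all genes and none of the rows were called, with 4 rows and 3008 of all genes at an unadjusted p under 0.05 and KRTAP2-4_1 at -2.40 ± 0.38 (adjusted p = 0.0710 from edgeR). With the line as a block KRTAP2-4_1 passed there (adjusted p = 0.0486 from edgeR), and in [B] against [N] KRTAP2-2_1 was added. DESeq2 called 4 KRTAP2 rows in each of [P], [B] and [S] against [N], and 4 in [R] against [S]. Of all genes it called 799, 2153, 960 and 1393 in these comparisons. With either sum of a stage compared left out, edgeR called 0 rows in [P] and [S] against [N] and at most 1 in [B] against [N].

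The rows outside the KRTAP2 family that passed the filter were KRTAP4-7, KRTAP4-9, KRTAP4-9_1 and KRTAP5-10, and none was called. The plain row of KRTAP4-9 and that of KRTAP5-10 had no count in the 13 [N] cells and 4 to 8 cells each with a count in [P] and [B]. The copy KRTAP4-9_1 had counts in 43 cells, against 17 for its plain row. Its log2 fold change in [P] against [N] was 3.90 ± 2.61 (SE), against 8.45 ± 4.28 for the plain row. KRTAP4-7 had counts in 1 of 13 [N] and 16 of 36 [B] cells, at 0.0161 and 0.108 CPM of the summed counts.

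Hair keratins, the filament partners of these proteins, were tested as a list. Of 15 rows of hair keratins tested, edgeR called 0 in each of the 6 comparisons of stages, where it called 0 to 0.658% of all genes. With so low a share, 0 of 15 is no result about hair keratins, and the same holds for the 0 calls of the lists below. At an unadjusted p under 0.05 there were 2 in [B] against [N] and 2 in [R] against [S], beside 3687 and 3008 of all genes. DESeq2 called 2 in [B] against [N], beside 2153 of all 19894 genes. The median log2 fold change of the hair keratin rows was 2.72 in [P], 1.54 in [B] and 0.83 in [S] against [N]. Over all genes tested it was 0.15, 0.20 and 0.15. Above 0 were 15, 12 and 9 of the 15 rows in these comparisons. The share of all genes above 0 was not computed, and their median was above 0 as well. These rows hold copies of the same gene, such as KRT34 and KRT34_1. Some had few counts in [N], as KRT34 with 65 and KRT36 with 0, so their fold changes are unsteady. The medians and counts are thus no result about the family. KRT34, a keratin of the hair cortex, had 5.81 ± 1.69 in [B] against [N] (adjusted p = 0.122 from edgeR), and 1 cell held 78.03% of its counts in [B]. KRT36 had no count in [N] and counts in 7 of 36 [B] cells.

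Of 8 tested genes of the hair shaft and inner root sheath, 0 were called by edgeR in any comparison of stages, with at most 2 at a raw p under 0.05, and DESeq2 called 2 in [B] against [N]. Of all 19894 genes, 1030 to 3687 had a raw p under 0.05 in these comparisons and DESeq2 called 128 to 2153. Beside such shares the few rows of this list and of the next are no result about them. S100A3, a calcium-binding protein of the hair cuticle, had log2 fold changes of 1.25 ± 0.52 in [P], 1.67 ± 0.52 in [B] and 1.46 ± 0.52 in [S] against [N] (adjusted p = 0.391, 0.139 and 0.301 from edgeR). LIPH, a lipase known for its part in hair growth, had 1.73 ± 0.59 in [B] against [N] (adjusted p = 0.169 from edgeR). Of 18 rows of the cornified envelope, the protein shell of dead keratinocytes, edgeR called 0 in every comparison of stages, with at most 4 at a raw p under 0.05, and DESeq2 called at most 1. KLK5, a protease of the skin barrier, had 5.40 ± 1.89 in [B] against [N] (adjusted p = 0.183 from edgeR) and passed with the line as a block (adjusted p = 0.0282 from edgeR).

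Keratins of stratified epithelia and wounds were a further list. Of 12 rows tested, KRT14, the type I keratin of basal keratinocytes, was called in [B] against [N] (adjusted p = 0.0219 from edgeR) and in [S] against [N] (adjusted p = 0.0342 from edgeR). Of all genes, 0.658% and 0.0704% were called in these comparisons. KRT14 had no count in 13 [N] cells, where 3 counts over the group would be 0.00807 CPM, and had counts in 17 of 36 [B] and 11 of 30 [S] cells. From the summed counts it was at least 345-fold higher in [B] and at least 1081-fold higher in [S], with 31.3% and 49.8% of the counts from 1 cell. KRT17, a keratin of wounded skin and the hair follicle, had counts in 1 of 13 [N], 27 of 36 [B] and 0 of 19 [R] cells and was not called in [B] against [N] (adjusted p = 0.0716 from edgeR). Of 7 rows of simple epithelial keratins, the class that HCT116 cells use, edgeR called 0 in every comparison of stages, with at most 2 at an unadjusted p under 0.05 and at most 1 called by DESeq2. Of all 19894 genes, 1030 to 3687 had an unadjusted p under 0.05 there and DESeq2 called 128 to 2153. KRT19 of that list had 1.58 ± 0.48 in [B] against [N] (adjusted p = 0.135 from edgeR).

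Between the lines, with stages as blocks, 0.206% of all genes were called and 0 of the 10 KRTAP rows. None of these rows had an unadjusted p under 0.05 or a call by DESeq2. Each genotype is 1 line, so p-values of this comparison measure the spread over stages and not between lines of a genotype. MSX2, a homeobox regulator of the hair matrix, was the 1 call among 51 hair, cornified and KRTAP rows and was 1.74 ± 0.24 higher on the log2 scale in p53-/- sums (adjusted p = 0.0346 from edgeR). Its summed CPM was 23.7 in p53+/+ and 64.2 in p53-/- budding cells, and with each of the 10 sums left out in turn it was called once, without the p53+/+ sum of [N] (adjusted p = 0.0485 from edgeR), and had adjusted p-values of 0.05003 to 0.162 from edgeR in the other fits. The hair keratins KRT81 and KRT86 had 4.69 ± 0.87 (adjusted p = 0.0649 from edgeR) and 3.07 ± 0.76 (adjusted p = 0.115 from edgeR), and DESeq2 called both. KRT81 stood at 2.54 CPM in p53+/+ and 42.0 CPM in p53-/- budding cells, the opposite side to KRTAP3-1. KRT32 went the other way, at -1.42 ± 0.60 (adjusted p = 0.329 from edgeR), with 36.0 CPM in p53+/+ and 8.7 CPM in p53-/- budding cells. The hair keratin list thus went both ways, with 7 of its 15 rows above 0 and a median of -1.42. Of that list DESeq2 called 3 rows higher and 2 lower, beside 1635 of all genes.

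By the rank correlation of log2(CPM + 1) over all cells, among 10600 rows with counts in at least 30 cells and a mean of at least 5 CPM, the plain rows most like KRTAP2-3 were KRTAP2-4 (rho = 0.959), KRTAP3-1 (0.670), POLD4 (0.636), SELENOM (0.623) and MMP24OS (0.622). POLD4 encodes a small subunit of DNA polymerase delta, SELENOM a selenoprotein of the endoplasmic reticulum, and MMP24OS lies opposite to MMP24, whose reads could be mixed with it without strand. For KRTAP3-1 they were SMIM4 (0.689), KRTAP2-3 (0.670), RABAC1 (0.668), KRTAP2-4 (0.666) and MXD4 (0.665). RABAC1 is a Rab-binding membrane protein and MXD4 a repressor of the MYC and MAX network. These cells share stages, lines and libraries, so the values describe a common course over the stages and not a link between genes.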

How the data were processed

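Reads of the single cells were trimmed by the authors (fastp), mapped to GRCh38 (HISAT2 2.0) and passed to StringTie. The tool that made the deposited counts is not given in the sources used here, and neither is a strand setting. The deposited table holds raw counts for 43386 rows, 9490 of them without a count. The study also derived FPKM values (RSEM, Bowtie2), not used here, and called changed genes with DESeq2. Sequencing had no molecular identifiers. CPM were computed from the deposited counts here, and counts were summed per stage and line into 10 sums.

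KRTAP2-3 and its copy had counts in every cell (Pearson's r 0.9995 of the counts, copy over plain row 1.27 at the median), and KRTAP3-1 and its copy in the same 90 cells (0.9996, 0.952). What the added numbers stand for is not given in the sources used here. Adding the rows would count many reads more than once if they were shared, so the plain row gives the level. Adding them had been planned, and the change was made after the rows were seen.

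The 10 sums went into edgeR's quasi-likelihood test (4.0.16, robust, scaled by TMM, R 4.3.3) on 19894 genes with a minimum count of 10 (filterByExpr) and a count in at least 12 cells. Adjusted p-values are Benjamini-Hochberg, called under 0.05. Each SE of a log2 fold change is its size divided by the square root of the F statistic of that test. For KRTAP2-3 and KRTAP3-1 the SE therefore carries the same choice of genes as a p-value would. In comparisons of stages the lines are the replicates, so p-values measure the spread between 2 lines. Between the lines the 5 stages take the place of replicates, so those p-values measure the spread over stages. Sums of one line are paired by that line. How the lines differ correlated between stages at 0.074 to 0.216, and a fit blocked on the line was an alternative. Other alternatives were DESeq2 1.42.0, scaling by library size alone, no filter, cells thinned to 15435056 counts, copies added, each sum left out, and 4 cells left out that the study's tables do not hold. Figures and levels used Python 3.11.15 with numpy 2.4.6, pandas 2.3.3, scipy 1.17.1 and matplotlib 3.10.9.

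The genes named are both members, every other KRTAP row past the filter, up to 4 genes of a list with the smallest p in a comparison, the 5 rows most like each member, neighbors at the locus, and CDKN1A and MDM2 as a check of the lines. The level of the gene disrupted in the p53-/- line is not reported here. MDM2 had a median of 84.6 CPM in p53+/+ and 54.3 CPM in p53-/- cells. The members and the lists were chosen with earlier results of these data known.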

Additional observations from a re-analysis of the deposited data

Results flagged for a closer look

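In groups of 4 to 10 cells, the highest or lowest cell was compared with its neighbor by Dixon's 95% value. Of 12 groups tested, 6 had a highest cell beyond it, where chance flags about 1 in 20 if values are normal and independent, which the skewed CPM of single cells are not, so these are a description. For KRTAP2-3 these were the p53-/- cells with 1591 CPM in [B] (next 490), 912 CPM in [S] (next 102.8) and 75.1 CPM in [R] (next 25.2). For KRTAP3-1 they were 0.781 CPM in p53-/- [N] (next 0.212), 44.5 CPM in p53+/+ [P] (next 13.2) and 18.96 CPM in p53-/- [S] (next 9.47). All 6 were high cells, in groups whose levels spread over orders of magnitude on the linear scale used.

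The change of KRTAP3-1 from [P] to [B] went in opposite directions in the lines, with a log2 change of 3.31 in the p53+/+ sums and -5.97 in the p53-/- sums. Each is 1 pair of sums, and the difference was not tested. The p53-/- value rests on the 2 high [P] cells with 1303 and 358 CPM. Without them the log2 ratio of the summed CPM was -0.74.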

How the results depend on the processing

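The counts of called genes among the 51 hair, cornified envelope and other KRTAP rows moved most. For [P], [B], [S] and [R] against [N], [B] against [P], [R] against [S] and the lines, edgeR called 1, 3, 1, 0, 0, 0 and 1. In that order the counts were 7, 11, 7, 3, 2, 4 and 4 without the filter on low counts, where more rows were tested, and 5, 9, 4, 1, 0, 5 and 10 with DESeq2, where 799, 2153, 960, 401, 128, 1393 and 1635 of all genes were called in place of 4, 131, 14, 0, 0, 4 and 41. With the line as a replicate block the count was 5 in [B] against [N] and 1 in [R] against [S], and the block changed no other of these calls. Between the lines it was 0 without the stage as a block and 2 with cells thinned. With each sum left out in turn it ranged from 0 to 0 in [P] and in [S] against [N] and from 0 to 1 in [B] against [N] and between the lines. Such a fit has 1 sum in an arm, which is assumed to vary like the other groups. Library size as the only scaling and the 4 cells left out moved none of these counts by over 1.5 times. The cause of these moves was not tested.

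Over the same fits the log2 fold change of KRTAP2-3 in [B] against [N] ranged from 4.96 to 5.94, the highest without the p53-/- sum of [N]. That of KRTAP3-1 ranged from 6.22 to 10.998 in [P] against [N], the ends being without the p53-/- sums of [P] and [N], and from -6.09 to -1.18 in [R] against [S], without the p53+/+ sums of [R] and [S]. In [B] against [P] it ranged from -5.08 to 2.36, so its sign rests on the sums included. Of the fitted changes of the pair, 160 moved by less than the SD between the lines and 6 by more. For KRTAP3-1 in [B] against [P] that SD was 6.57, so its changes of sign count among the 160. The count is therefore no sign of stability where the lines lie far apart. Adding the copies raised each mean of KRTAP2-3 by 2.24 to 2.32 times and each mean of KRTAP3-1 by 1.87 to 2.00 times, and kept each fitted change within that spread. Depth limits the detection of KRTAP3-1: thinning left 3 of the 6 p53+/+ [N] cells, of which 0% had a count, and took the share in p53-/- [S] cells from 55.6% to 25%.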

Other observations

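The rows with the lowest rank correlation over all cells fall outside the naming rule and were read after their values were seen. For KRTAP2-3 the lowest 5 were DEPDC1 (rho = -0.661), AURKA (-0.640), NASP (-0.633), RANBP1 (-0.632) and ESCO2 (-0.631). For KRTAP3-1 they were TUBA1B (-0.648), MAD2L1 (-0.630), AURKA (-0.626), TPX2 (-0.624) and SHCBP1 (-0.622). Most of these are known for their parts in mitosis or DNA replication. AURKA, a mitotic kinase, had its highest stage median in [N], at 193 CPM, and its lowest in [B], at 16.8 CPM.

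KRTAP4-2 had 797 counts in all, every one of them from 1 [S] cell, and KRTAP1-1 had 263 of its 317 counts in 1 [S] cell.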
